A study of Dendrobium nobile with 12 samples.

Results

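Stem-only gene models of the orchid Dendrobium nobile are described here across 6 tissues. A model was counted as stem-only when its FPKM (counts scaled to coding length and library total) was at least 2 in both stem libraries and under 1 in each of the 10 other libraries. Of 31672 gene models, 69 met this rule. The models were thus chosen by their FPKM in all 12 libraries, and the difference between stem and the other tissues is given as a description, with no test. The 12 libraries are RNA-seq libraries of stem, leaf and root from 1-year seedlings, and of bud, petal and labellum (the lip of the orchid flower) from 2-year seedlings, with 2 libraries per tissue. The title and the organism label name D. nobile, whereas the design text names Dendrobium officinale. All came from 1 genotype, chichai number 1 in the labels, and no group received a treatment. Floral tissues and seedling age change together and cannot be told apart. Nothing in the labels states that libraries of the same tissue are separate plants, and their spread may be technical.

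The stem of a Dendrobium is a fleshy, jointed axis that bears the leaves, stores water and polysaccharides, and is the organ harvested for medicinal use. The alkaloids for which D. nobile is known are picrotoxane-type sesquiterpenoids, and the series comes from a genome study concerned with how they are made and stored. The gene models carry identifiers of the kind that the annotation program EVidenceModeler writes, a chromosome or scaffold name followed by a running number. No gene name or product is paired with these identifiers in the sources used here, so no function is stated for any model and the labelled tissues were not checked against marker genes. In whole-tissue RNA, fewer cells of a type and less RNA per cell cannot be told apart.

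Total counts were 28699617 and 27175842 in the stem libraries and lay between 27307456 and 32040196 in leaf, bud, petal and labellum. The root libraries were shallower, with 14165136 and 5289212 counts. For a model of 939 bp, the median coding length of the stem-only models, an FPKM of 1 corresponded to 26.9 and 25.5 counts in the stem libraries, but to 13.3 and 4.97 counts in the root libraries. A count of 0 in root replicate 2 therefore allows an FPKM of up to 0.604 at that length (3 counts), against 0.226 in root replicate 1 and at most 0.117 in the other 8 libraries outside stem. These floors cover counting error only.

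Stem-only models were mostly of low abundance in stem. Their mean stem FPKM ran from 2.05 to 175, with a median of 4.90 and quartiles of 3.21 and 8.77. Among all 14482 models that reached 2 FPKM in both stem libraries, of which the stem-only models were 0.476%, the median was 21.8. A mean stem FPKM under 5 was found for 36 of the 69 (52.2%), against 11.0% of those 14482 models. The 69 together took 0.0773% and 0.0769% of the counts in the stem libraries. Levels were unevenly shared, since 1 model made up 22.9% of the summed mean stem FPKM and the 10 most abundant made up 59.9%.

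**Figure D1:**
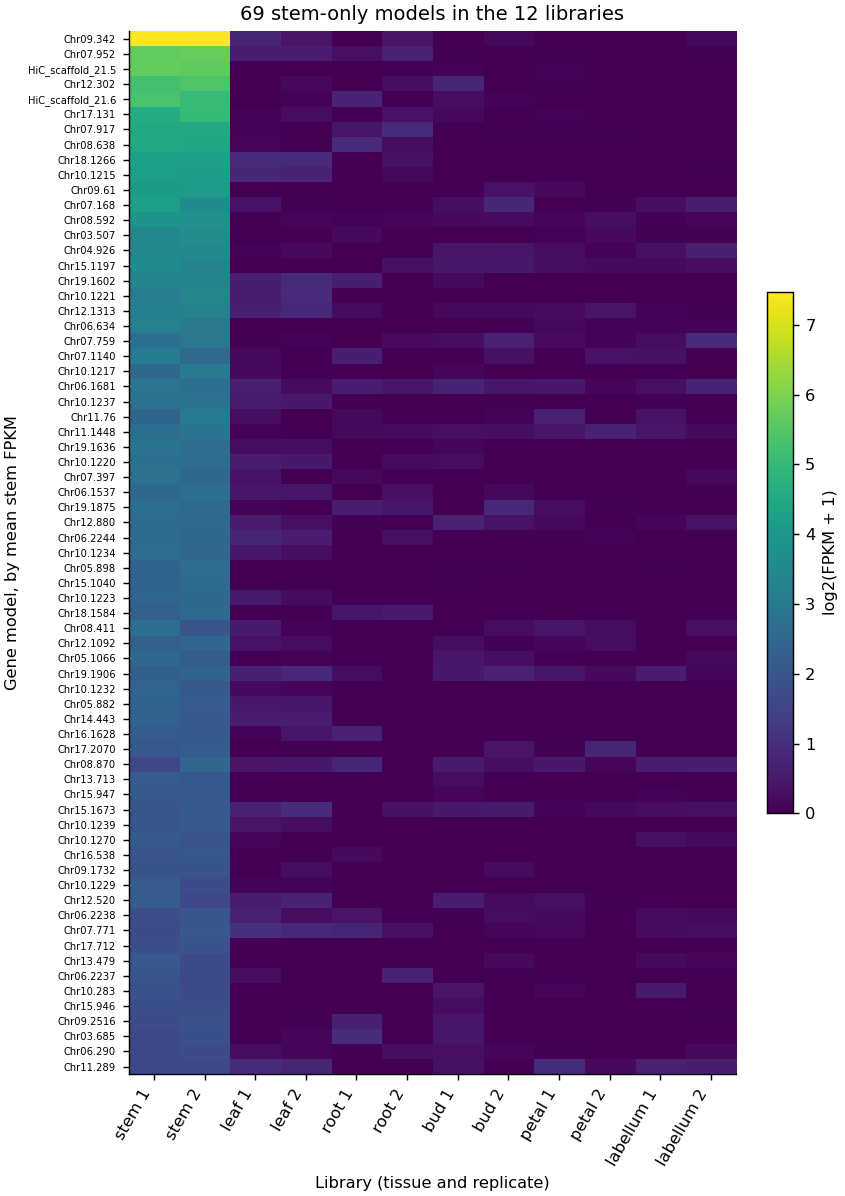
Each row is 1 of the 69 stem-only models, ordered by mean stem FPKM, each column is 1 of the 12 libraries, and colour gives log2(FPKM + 1). The 2 stem columns are high in every row because the rule requires it. Outside stem, faint signal is spread most widely over the 2 leaf columns.

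The most abundant stem-only model, evm.model.Chr09.342-gene (chromosome 9, coding length 588 bp), stood at 174 and 177 FPKM in the stem libraries. It was at 0.743 and 0.326 FPKM in leaf and at 0 and 0.322 in root. It was at 0 and 0.112 FPKM in bud, at 0 in both petal libraries, and at 0 and 0.113 in labellum. The 2 stem libraries were close to each other, and no other library came near them. The pooled ratio of CPM (counts scaled to library total), stem over the 10 other libraries, was 1065.

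The second, evm.model.Chr07.952-gene (chromosome 7, 1254 bp), stood at 50.04 and 52.3 FPKM in stem. It reached 0.603 FPKM at most elsewhere, from 4 counts in root replicate 2. The third, evm.model.HiC_scaffold_21.5-gene (scaffold 21, 708 bp), stood at 51.2 and 49.6 FPKM in stem. It had 1 count in bud replicate 1, 1 in petal replicate 1 and 0 in the 8 others. With a pooled ratio of 4624 (95% exact Poisson interval of the 2 counts, 1280 to 38178, counting error only), this model combined a high stem level with near absence elsewhere. Next in level came evm.model.Chr12.302-gene (chromosome 12, 1008 bp), with 36.8 and 41.4 FPKM in stem and its highest other value, 0.727, in bud replicate 1.

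Among the following 6, stem values ranged from 39.2 and 32.2 FPKM in evm.model.HiC_scaffold_21.6-gene to 17.6 and 17.0 FPKM in evm.model.Chr10.1215-gene. Between these lay evm.model.Chr17.131-gene (23.5 and 31.0 FPKM in stem), evm.model.Chr07.917-gene (21.6 in both), evm.model.Chr08.638-gene (21.8 and 20.8) and evm.model.Chr18.1266-gene (18.4 and 17.9). The library with the highest value outside stem differed among these models. It was root replicate 1 for evm.model.HiC_scaffold_21.6-gene (0.682 FPKM, 6 counts) and evm.model.Chr08.638-gene (0.882, 12 counts). It was root replicate 2, the shallowest library, for evm.model.Chr17.131-gene (0.292, 1 count) and evm.model.Chr07.917-gene (0.893, 5 counts). It was a leaf library for evm.model.Chr18.1266-gene (0.905, 141 counts) and evm.model.Chr10.1215-gene (0.755, 40 counts). The root values thus rest on few counts. In all, 14 of the 69 models had at least 10 FPKM in both stem libraries.

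**Figure D2:**
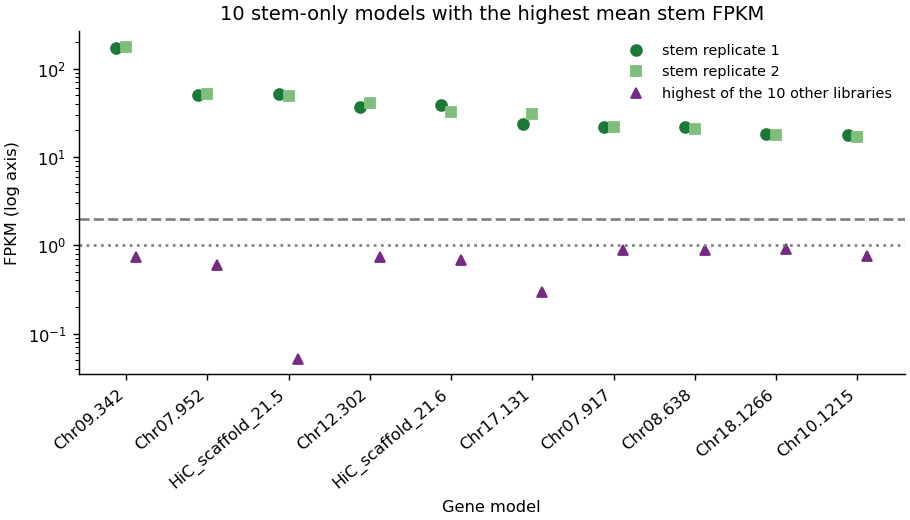
FPKM on a log axis for the 10 stem-only models with the highest mean stem FPKM: both stem libraries and the highest of the 10 other libraries. The dashed and dotted lines mark the limits of 2 and 1 FPKM. Stem values lie between 17.0 and 177, and the highest other value is 0.0517 for the model on scaffold 21 numbered 5 and between 0.292 and 0.905 for the other 9 models.

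Several models sat at the edge of the rule. Nearest to the stem limit were evm.model.Chr03.685-gene (2.005 and 2.56 FPKM in stem), evm.model.Chr11.289-gene (2.09 and 2.01) and evm.model.Chr06.290-gene (2.05 and 2.33). Just outside it stood evm.model.Chr15.1280-gene (2.15 and 1.97 FPKM in stem), evm.model.Chr06.650-gene (2.43 and 1.93) and evm.model.Chr18.2438-gene (1.91 and 2.23). Nearest to the limit of 1 were evm.model.Chr07.771-gene (0.993 FPKM in leaf replicate 1), evm.model.Chr03.685-gene (0.980 in root replicate 1) and evm.model.Chr11.289-gene (0.974 in petal replicate 1). Just past that limit stood evm.model.Chr19.1699-gene (1.00 FPKM in bud replicate 2), evm.model.Chr06.608-gene (1.01 in root replicate 2) and evm.model.Chr04.1397-gene (1.02 in root replicate 2). Each of these models, inside or outside, thus lay within hundredths of an FPKM of the limit it is named for, and membership there is a matter of the limit chosen. A further 57 models passed the stem limit but reached 1 FPKM in exactly 1 other library. That library was root replicate 2, the shallowest, for 16 of them, bud replicate 2 for 10 and root replicate 1 for 9.

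The 2 stem libraries gave similar levels for most stem-only models. Counts ranged from 28 to 2928 in stem replicate 1 (median 132) and from 23 to 2821 in stem replicate 2 (median 131). The log2 ratio of stem replicate 2 to stem replicate 1 had quartiles of -0.23 and 0.19, against -0.09 and 0.09 for all 14482 models at 2 FPKM or more in stem, which are more abundant. It exceeded 1.5-fold either way for 7 models and 2-fold for 1. That model, evm.model.Chr08.870-gene (chromosome 8), stood at 2.06 FPKM (48 counts) in stem replicate 1 and 4.53 FPKM (100 counts) in stem replicate 2. Next in the same direction was evm.model.Chr11.76-gene, at 4.36 and 7.47 FPKM. The largest differences the other way were evm.model.Chr08.411-gene, at 5.59 and 2.92 FPKM, and evm.model.Chr12.520-gene, at 3.48 and 2.05 FPKM. Over the 18572 tested models with a count in stem, the stem libraries differed by more than counting noise, and chi-square divided by its degrees of freedom was 4.41.

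The most marked feature of the positions was a stretch of chromosome 10 where stem-only models were dense. Within model numbers 1215 to 1239, 10 of the 69 models (14.5%) stood among 23 listed models. In windows of 25 model numbers the next fullest held 3 stem-only models, numbered 2237 to 2244 on chromosome 6. This stretch was singled out after its values were seen, and it is described with no test. Model numbers stand in for order along the chromosome, since no coordinates were used here.

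Stem levels in the stretch were moderate. At its start, model 1215 (1653 bp) stood at 17.6 and 17.0 FPKM in stem, and model 1217 (441 bp) stood at 4.74 and 7.68 FPKM. Model 1220 (1104 bp) stood at 5.59 and 5.33 FPKM and model 1221 (1260 bp) at 7.94 and 9.61 FPKM. Model 1223 (990 bp) stood at 4.36 and 4.61 FPKM and model 1229 (714 bp) at 3.46 and 2.27 FPKM. Their stem levels spanned the middle of the range of stem-only models, and their coding lengths differed from one to the next. Further along, model 1232 (1653 bp) stood at 4.43 and 3.23 FPKM in stem and model 1234 (1176 bp) at 5.30 and 4.51 FPKM. Model 1237 (1425 bp) stood at 5.89 and 6.15 FPKM and model 1239 (588 bp) at 2.96 and 3.25 FPKM. Models 1215 and 1232 have the same coding length. Where neighbouring models are near-identical, counting could split or share their reads, and their sequences were not used here.

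The 10 models of the stretch also shared a pattern outside stem, namely faint signal in leaf and almost none elsewhere. All 10 had a count in at least 1 leaf library, 277 leaf counts in all, and leaf was the next highest tissue for each. Their mean leaf FPKM was between 1.14% and 8.63% of the mean stem FPKM. The same 10 models had 4326 counts in stem, 2 counts in the 2 root libraries and 11 counts in the 6 floral libraries. Of the 10 models, 6 had 0 counts in all floral libraries and 8 had 0 counts in root. Among the 59 stem-only models outside the stretch, leaf was next highest for 19, 6 had no floral count and 24 had no root count. Root depth limits the comparison with root.

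Other models in and beside the stretch showed the same kind of profile without meeting the rule. Model 1227 (636 bp) stood at 13.9 and 13.7 FPKM in stem, 0.147 and 1.56 FPKM in leaf and 0 in the 8 others. Model 1228 (258 bp) stood at 19.7 and 23.1 FPKM in stem, 0.605 and 2.35 FPKM in leaf and 0 in the 8 others. Leaf replicate 2 alone kept both out of the stem-only set. Model 1244 (2.03 and 1.02 FPKM) and model 1245 (1.16 and 1.31 FPKM) were lower in stem, reached 0.304 FPKM at most in leaf, and had 0 counts in root and floral libraries. From 1215 to 1245, 14 of 29 listed models had at least 1 FPKM in both stem libraries and stood higher there than in all others, while 10 had no count in any library. Before the stretch, 7 of the 9 models numbered 1206 to 1214 had no count in any library, and 5 of the 6 models numbered 1200 to 1205 reached 1 FPKM in a tissue other than stem.

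**Figure D3:**
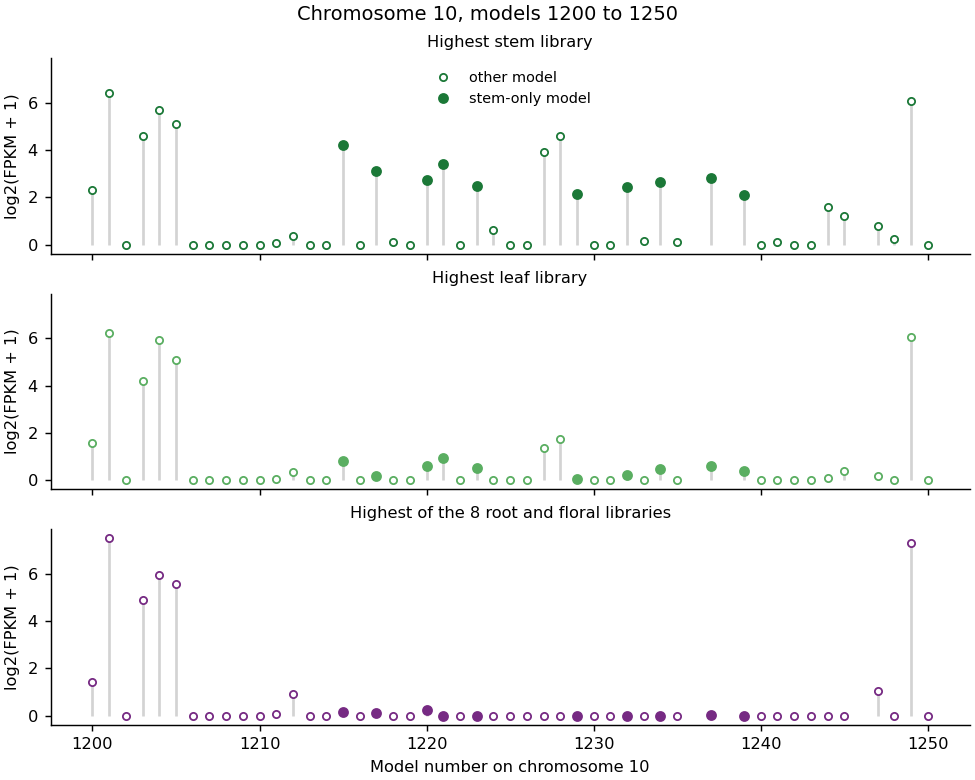
Models numbered 1200 to 1250 on chromosome 10, with log2(FPKM + 1) in the highest stem library (top), the highest leaf library (middle) and the highest of the 8 root and floral libraries (bottom). Filled points are stem-only models and open points other models. Of the 29 listed models from 1215 to 1245, 14 have at least 1 FPKM in both stem libraries and stand higher there than in all others, and 10 have no count in any library. Values of these 29 models reach 2.35 FPKM at most in leaf (model 1228) and are near 0 in root and floral libraries. By contrast, model 1249 and 5 of the 6 models numbered 1200 to 1205 carry signal in all 3 panels.

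Strictly consecutive model numbers were found in 4 pairs, 8 of the 69 models (11.6%), and no run was longer than 2. The pair with the highest stem level was evm.model.HiC_scaffold_21.5-gene with evm.model.HiC_scaffold_21.6-gene, described above. On either side of this pair, model 4 of the scaffold was at 2.28 and 2.50 FPKM in stem and 9.03 and 7.95 FPKM in leaf, and model 7 had no count in stem. The second pair, models 1220 and 1221, lies within the stretch on chromosome 10.

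The pair evm.model.Chr15.946-gene and evm.model.Chr15.947-gene on chromosome 15 had the same coding length, 582 bp, and similar levels. The first stood at 2.51 and 2.40 FPKM in stem, with 3 counts in bud replicate 1 and 0 in the 9 other libraries. The second stood at 3.35 and 3.16 FPKM in stem, with 1 count in bud replicate 1 and 1 in labellum replicate 1. Whether reads were shared between these 2 models of equal length was not tested. The last pair, evm.model.Chr06.2237-gene (2.98 and 2.14 FPKM in stem) and evm.model.Chr06.2238-gene (2.50 and 3.01 FPKM), stood near evm.model.Chr06.2244-gene (5.21 and 4.70 FPKM) on chromosome 6. Model 2240, between them, stood at 0.421 and 0.444 FPKM in stem and at 6.32 and 6.07 FPKM in leaf.

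Members lay on 17 of 19 chromosomes, with 67 on chromosomes and 2 on scaffold 21. Chromosome 10 held 12 of its 1393 listed models (8.61 per 1000), of which 10 form the stretch. The other 2 were evm.model.Chr10.283-gene and evm.model.Chr10.1270-gene. By number of stem-only models chromosomes 7 and 6 followed, with 7 of 1183 (5.92 per 1000) and 7 of 2500 (2.80 per 1000). By rate, chromosome 8 (3.51 per 1000), chromosome 12 (3.11) and chromosome 15 (3.05) stood between these 2, and scaffold 21 held 2 of 56 models. Chromosomes 1 and 2 held none of 1239 and 1344 models.

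Coding lengths of stem-only models were concentrated at middle values, with few long models. The median was 939 bp, with quartiles of 645 and 1176 bp, against 1140 bp with quartiles of 705 and 1722 bp for all 14482 models at 2 FPKM or more in both stem libraries. Models over 1500 bp were 8 of 69 (11.6%), against 33.0% of those 14482. Models under 600 bp were 15 of 69 (21.7%), against 18.7%. The 3755 of those models with a mean stem FPKM of 2 to under 10 had a median of 1263 bp. For a given FPKM a longer model collects more counts, so the rule acts on unlike counts at unlike lengths.

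The shortest stem-only model was evm.model.Chr10.1270-gene (294 bp), at 3.32 and 2.88 FPKM in stem from 28 and 23 counts. The next was model 1217 of the stretch on chromosome 10 (441 bp). The longest was evm.model.Chr18.1266-gene (chromosome 18, 4971 bp), with 2626 and 2418 counts in stem. It was followed by evm.model.Chr08.592-gene (chromosome 8, 2958 bp), at 13.5 and 12.8 FPKM in stem and between 0.0211 and 0.215 FPKM in the other 10 libraries. By mean stem FPKM, the median length was 844.5 bp for the 36 stem-only models under 5 FPKM, 1059 bp for the 17 from 5 to under 10, 1059 bp for the 11 from 10 to under 30 and 708 bp for the 5 at 30 or more.

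**Figure D4:**
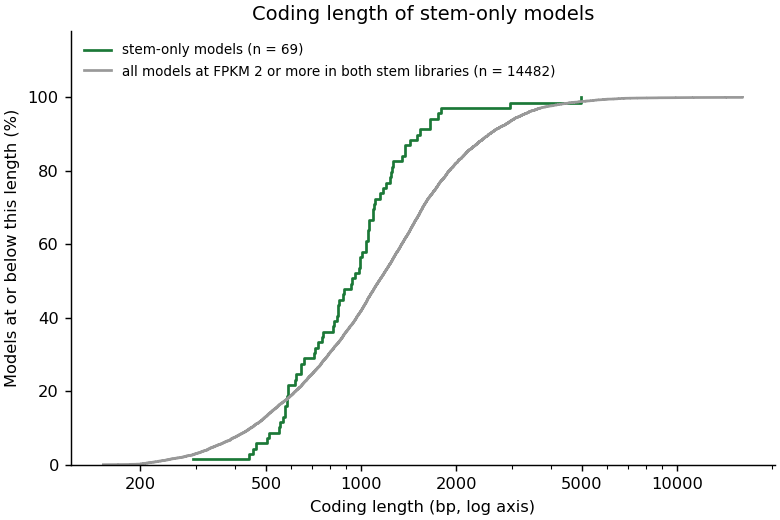
Cumulative share of models (%) by coding length (bp, log axis) for the 69 stem-only models and for all 14482 models that reached 2 FPKM in both stem libraries. The medians are 939 bp and 1140 bp, and the curve of stem-only models rises most steeply between about 600 and 1500 bp.

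Outside stem, few stem-only models were without any count. One of the 69, evm.model.Chr17.712-gene (chromosome 17, 465 bp), had 0 counts in all 10 other libraries. It stood at 2.47 and 2.85 FPKM in stem (33 and 36 counts) and was at least 107-fold higher in stem, taking a floor of 3 counts over the 10 libraries. A further 8 models had 1 to 3 counts in the 10 libraries together, and 52 had 10 or more. The highest FPKM outside stem had a median of 0.509 over the 69 models and was under 0.5 for 34 of them.

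Leaf held more of this faint signal than the other tissues did. In the leaf libraries 48 and 47 of the 69 models had a count, and they took 21.8 and 20.5 CPM. In root 24 and 22 models had a count, at 8.75 and 8.13 CPM, and in bud 35 in each library, at 9.70 and 9.06 CPM. Petal followed with 32 and 24 models, at 5.93 and 4.34 CPM, and labellum with 26 and 30 models, at 4.99 and 6.99 CPM. Both leaf libraries were above 20 CPM and the 8 other libraries outside stem under 10 CPM, while the number of models with a count also depends on depth. The leaf signal was unevenly shared among the 69 models. The leaf libraries held 699 and 644 counts of these models. Over both, 277 counts fell on the 10 models of the stretch on chromosome 10 and 275 on evm.model.Chr18.1266-gene. By mean FPKM the next highest tissue was leaf for 29 of 69 models, bud for 14, root for 12, petal for 7 and labellum for 6. Of the 3562 models at 2 FPKM or more whose highest mean was in stem, leaf was next highest for 46.2%, root for 28.4%, bud for 13.6%, labellum for 8.03% and petal for 3.73%. Among stem-only models the shares were 42.0% for leaf, 17.4% for root, 20.3% for bud, 8.70% for labellum and 10.1% for petal, and the differences from the wider set were not tested. Root means come from the shallowest libraries and can rest on few counts. Root was next highest on 1 root count for evm.model.Chr17.131-gene and on 2 for evm.model.Chr16.538-gene.

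**Figure D5:**
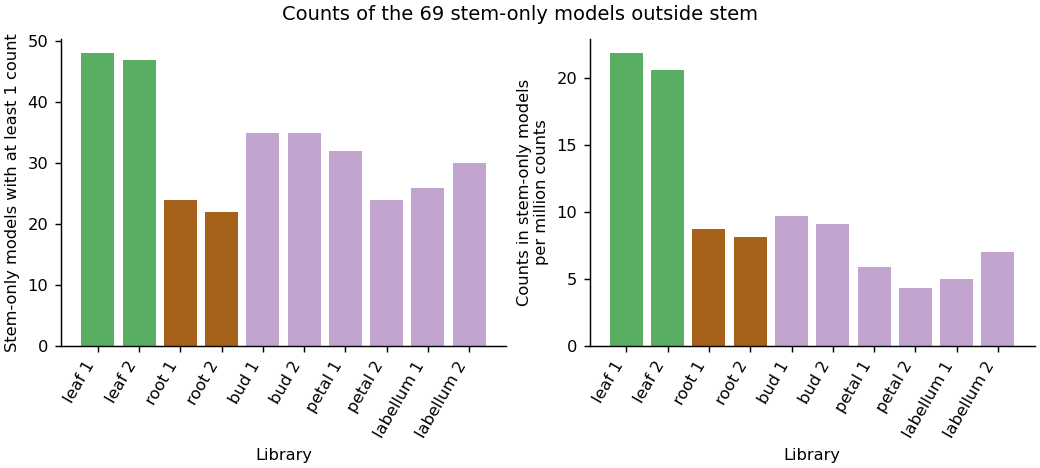
Left, number of the 69 stem-only models with at least 1 count in each library outside stem. Right, their summed counts as CPM. The 2 leaf libraries are highest in both panels (48 and 47 models, 21.8 and 20.5 CPM), and the rule holds each model under 1 FPKM in all of these libraries.

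Levels in leaf, root and the floral tissues were also set against each other. The rule caps all of these values under 1 FPKM, and of the 69 models 43 passed the filter on low counts through stem alone, so counts of calls are given here as a description and nothing is read from them against the other models. The edgeR quasi-likelihood test was fitted to all models and 12 libraries, and a model was called at a Benjamini-Hochberg adjusted p under 0.05 and a change of at least 2-fold. In a second fit, of the 10 libraries that are not stem, 26 stem-only models could be tested. In leaf against the mean of the floral tissues that fit called 11 of the 26 higher (24.6% of all tested models were) and 2 lower (22.4% were). The fit with stem called 24 of 69 higher (34.8%, against 25.1% of the 19123 tested models) and 3 lower (4.35%, against 23.1%). The stretch on chromosome 10 gave 8 of those 24. Only 4 of its 10 models could be tested without stem, and that fit called all 4 higher.

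Of the models called higher in leaf than in floral tissues, evm.model.Chr18.1266-gene averaged 0.873 ± 0.0450 FPKM in leaf (SD, n = 2) and 0.00446 ± 0.00538 FPKM in floral libraries (SD, n = 6). The log2 fold change was 7.80 ± 0.77, where the second value is an approximate SE worked back from the F statistic of the test. The counts behind it were 275 in leaf and 4 in floral libraries, and the groups did not overlap. For this model the adjusted p was 2.64e-05 in the fit with stem (Benjamini-Hochberg, edgeR quasi-likelihood test), and the fit without stem called it too. The rule had capped the leaf, root and floral values of every stem-only model. This p and the adjusted p values of all models named below are therefore given as a description.

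Models 1221 and 1215 of chromosome 10 were also called higher in leaf. For evm.model.Chr10.1221-gene there were 58 counts in leaf and 0 in the floral libraries, so it was at least 53.7-fold higher in leaf (floor of 3 counts over the 6 floral libraries). For evm.model.Chr10.1215-gene there were 75 counts in leaf and 2 in the floral libraries, a ratio of 104 with a 95% interval of 28.8 to 860. In the fit with stem, adjusted p values came to 0.000347 and 0.000127 (edgeR quasi-likelihood fit with Benjamini-Hochberg adjustment). Both models were also called in the fit without stem.

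Lower in leaf than in the floral tissues were evm.model.Chr15.1197-gene, evm.model.Chr11.1448-gene and evm.model.Chr07.759-gene. The first averaged 0.0102 ± 0.0144 FPKM in leaf (1 count) and 0.245 ± 0.113 FPKM in floral libraries (66 counts), and the ratio of floral over leaf CPM was 23.8 (95% interval 4.27 to 939). For the second there were 2 counts in leaf and 61 in floral libraries, a ratio of 10.98 (3.04 to 90.7). For the third there were 3 counts in leaf and 78 in floral libraries, a ratio of 9.36 (3.20 to 45.4). Their adjusted p values in the fit with stem were 0.00565, 0.00844 and 0.0353 (by Benjamini-Hochberg from the edgeR quasi-likelihood test). Without leaf replicate 2 none of these 3 was called (adjusted p 0.0566, 0.0648 and 0.113 by the same edgeR test), and another stem-only model was the 1 called lower. The call of evm.model.Chr07.759-gene was also lost in the fit without stem and without leaf replicate 1, petal replicate 1, labellum replicate 2 or either stem library (0.0596 to 0.187).

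In leaf against root the fit without stem called 1 of the 26 models higher (20.9% of all tested models were) and 0 lower (18% were). The fit with stem called 9 of 69 higher (13.0%, against 22.7% of all tested models) and 4 lower (5.80%, against 17.7%), and the DESeq2 test called 9 and 3. The 1 model called in both fits was evm.model.Chr10.1237-gene, with 43 counts in leaf and 0 in root, at least 4.40-fold higher in leaf (floor of 3 counts over both root libraries). For evm.model.Chr10.1221-gene the counts were 58 in leaf and 0 in root (at least 5.93-fold) and for evm.model.Chr12.520-gene 37 and 0 (at least 3.79-fold). Neither evm.model.Chr10.1221-gene nor evm.model.Chr12.520-gene was called in the fit without stem. In the fit with stem the adjusted p values came to 0.0113, 0.00989 and 0.0351 (edgeR quasi-likelihood fit with Benjamini-Hochberg adjustment). Without root replicate 1 they were 0.0756, 0.0542 and 0.169 by the same edgeR test, and evm.model.Chr12.520-gene also lost its call without either stem, either leaf or the other root library (0.0566 to 0.0873).

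Models called lower in leaf than in root in the fit with stem rested on few counts. For evm.model.Chr07.917-gene there were 2 counts in leaf and 10 in root, with an adjusted p of 0.0121 by the same edgeR test. That call was lost in the fit without stem, without leaf replicate 2 (0.0560) and without root replicate 2 (0.0536). The counts of evm.model.Chr18.1584-gene, 0 in leaf and 6 in root, and of evm.model.Chr03.507-gene, 0 and 2, are too few to be tested without stem, and no p is given for them. The number of higher models, 9 in all, was 5 without stem replicate 1, stem replicate 2 or leaf replicate 1, 4 without leaf replicate 2 and 2 without root replicate 1. The number of lower models, 4 in all, was 2 without leaf replicate 1 or root replicate 1 and 0 without leaf replicate 2.

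In root against the floral tissues the fit without stem called 4 of the 26 models higher (23.5% of all tested models were) and 1 lower (24.5% were). The fit with stem called 11 of 69 higher (15.9%, against 22.6% of all tested models) and 1 lower (1.45%, against 26.3%). None of the 11 was in the stretch on chromosome 10, and 3 of them had at least 10 root counts. Among the 4 models called higher without stem were evm.model.Chr07.917-gene (10 counts in root, 3 in floral libraries) and evm.model.Chr07.952-gene (8 and 3). The 3 of the 11 with the largest fold change were too low to be tested without stem, and their counts alone are given. Others of the 11 were also too low for that fit. There were 6 counts in root and 0 in the floral libraries for evm.model.Chr18.1584-gene, and 5 in root, all in replicate 1, and 0 in the floral libraries for evm.model.Chr16.1628-gene. There were 13 counts in root, 12 of them in replicate 1, and 2 in the floral libraries for evm.model.Chr08.638-gene.

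The 1 model called lower in root, evm.model.Chr04.926-gene, had 0 counts in root and 59 in floral libraries and was at least 2.17-fold lower in root (floor of 3 counts over both root libraries). Its adjusted p was 0.0136 in the fit with stem and 0.118 without root replicate 1, by the same edgeR test, and it was called in the fit without stem. Without root replicate 1 the 11 higher calls were 6 and the 1 lower call was 0, and without root replicate 2 and bud replicate 2 in turn there were 3 and 2 lower calls.

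The same limits applied to each other tissue gave sets of unlike size. Stem had 69 models, leaf 41, root 212, bud 232, labellum 8 and petal 0. Median coding length was 939 bp for the stem set, 1089 bp for leaf, 1002 bp for root, 795 bp for bud and 1516.5 bp for labellum. The median of the mean FPKM in the set's own tissue was 4.90 for stem, 3.66 for leaf, 9.56 for root, 9.82 for bud and 9.30 for labellum. Runs of consecutive numbers held 11.6% of the stem set, 9.76% of the leaf set, 14.6% of the root set, 16.8% of the bud set and 6 of the 8 labellum models, and the longest run was 2 in stem, 2 in leaf, 4 in root, 5 in bud and 4 in labellum. The fullest window of 25 model numbers held 10 models of the stem set, 3 of leaf, 6 of root, 5 of bud and 5 of labellum. These are counts side by side, with no test of their differences.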

How the data were processed

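RNA was measured in 12 libraries, 2 from each of 6 tissues; per the labels' protocols, extraction used a column kit and library preparation a SMARTER mRNA kit. For the aligner, counter and strand handling, nothing is given in the sources used here, so values of near-identical, overlapping or antisense models are uncertain; per the submitters' processing notes the builds are GRCm38 and mm10, which are mouse builds. The authors deposited whole-number counts per gene model and, separately, FPKM values for the same 31672 models. In 100% of 224365 FPKM values above 0, a tolerance of 0.01 bp recovered 1 length per model from count, FPKM and library total; all lengths were multiples of 3 and are called coding lengths.

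Stem-only models were found by the FPKM rule. The count test was that of edgeR 4.0.16 under R 4.3.3 (filterByExpr, TMM, quasi-likelihood test, 1 mean per tissue, all 12 libraries), with p-values adjusted over all 19123 tested models; p-values measure only the spread between these libraries. Alternatives used DESeq2 1.42.0 and limma 3.58.1. Intervals and floors (3 counts, 95% exact Poisson limits) cover counting error only. The test was tried on simulated data for leaf against root only. Changes were put there on more abundant models with otherwise equal tissue means, so that trial does not cover the counts near 0 met here. Members, lists and tests were chosen with earlier results of these data known. Named models follow a rule: the 10 highest in stem, members of runs, those nearest each limit, the 2 shortest and 2 longest, those with 0 counts outside stem, up to 3 called per direction and comparison, and the 2 that differ most between stem libraries in each direction. The stretch on chromosome 10, with its models and neighbours, was named after its values were seen, as were models beside the runs.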

Additional observations from a re-analysis of the deposited data

How the results depend on the processing

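The number of stem-only models followed the limits: 127 with a stem limit of 1 FPKM, 38 with 4, 34 with a limit of 0.5 in the other libraries, 174 with 2, and 122 with tissue means in place of libraries, against 69. It was 65 with TMM-scaled FPKM (59 shared with the 69) and 73 with CPM (45 shared). Leaving out single libraries gave 69 to 85 models, a median length of 880.5 to 996 bp and 8 to 11 models in runs. Median length was 1056 bp with a stem limit of 4, 733.5 bp with a limit of 0.5 elsewhere and 1095 bp with 2. Models in runs, 8 in all, were 14 with a stem limit of 1, 4 with 4, 2 with a limit of 0.5 elsewhere, 4 with CPM and 15 when numbers could differ by 2. The cause of these shifts was not tested. Of the 10 models of the stretch on chromosome 10, 7 met the rule with a stem limit of 4, 6 with a limit of 0.5 elsewhere, 6 with CPM and 9 with TMM-scaled FPKM.

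Called stem-only models ranged, when single libraries were left out, from 20 to 24 higher and 1 to 4 lower in leaf against floral, from 2 to 11 and 0 to 6 in leaf against root, and from 6 to 13 and 0 to 3 in root against floral. A tissue with 1 library left is assumed to vary like the others. Without stem (26 stem-only models testable) the counts were 11 higher in leaf against floral, 1 higher and 0 lower in leaf against root, and 4 higher in root against floral. By limma on log2(FPKM + 1) they were 0 in each comparison, by construction, since values under 1 FPKM cannot differ 2-fold on that scale; 20, 18 and 6 stem-only models had an adjusted p under 0.05 there (leaf against floral, leaf against root, root against floral). Outside the stretch, a count added after seeing the data, 5 models were higher in leaf against root. Without a filter, with DESeq2 size factors, total counts or the DESeq2 test, all counts stayed within 1.5 times.

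Nothing in the labels states that same-numbered libraries of different tissues belong together. Their deviations were correlated from -0.30 to 0.12 (15 tissue pairs), which cannot settle whether they share a plant or a batch. With a replicate block 22 and 3 models were called in leaf against floral, 8 and 3 in leaf against root and 8 and 1 in root against floral. Low root depth limits every statement of absence in root.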
